A study of Mus musculus with 12 samples.

Results

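The ankyrin and spectrin genes Ank1, Ank2, Ank3, Sptan1, Sptb and Sptbn1 were followed in bulk gastrocnemius, a calf muscle, of mice designed to lose ankyrin-B in skeletal muscle. They were found by gene symbol, all 6 were among the 24528 genes of the deposited table, and all 6 were among the 12218 genes that passed the filter on low values. The 6 control libraries (WT) came from Ank2f/f mice, with floxed Ank2 alleles and no Cre, and the 6 knock-out libraries (KO) from Ank2f/f; HSA-Cre+ mice. All were male and 4 months old. Both groups thus carried the floxed alleles, and only the KO mice carried Cre, so that Cre itself and the loss of Ank2 cannot be told apart. HSA-Cre is driven by the human skeletal actin promoter, which is active in muscle fibres, while vessels, nerve, connective tissue and blood in the same piece of muscle are not its target. KO mice and their littermate controls shared cages. The labels number the libraries and do not name animals, so p-values measure the spread between these libraries.

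Ankyrins are adaptor proteins. Their ankyrin repeats hold channels, transporters and adhesion molecules in the membrane, and a domain further along binds beta-spectrin. Spectrins are long flexible rods of paired alpha and beta chains which join end to end and tie to actin, so that ankyrin, spectrin and actin form a net under the membrane. Ank1 encodes ankyrin-R, first known from red cells, and in striated muscle also gives a short form that sits in the sarcoplasmic reticulum. Ank2 encodes ankyrin-B and Ank3 encodes ankyrin-G, which in muscle are known from costameres and the neuromuscular junction. Sptan1 encodes alpha-II spectrin, the alpha chain of most cells other than red cells. Sptb encodes beta-I spectrin, shared by red cells and muscle, and Sptbn1 encodes beta-II spectrin, the widespread beta chain.

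RefSeq promoter windows (GRCm38.p6, the assembly of mm10; 250 bases before a start and 50 after it) matched 4 of the 6 genes, with 8 windows; Ank1 and Ank3 had no entry. Below are 2 of the 4 Ank2 windows, which lie far apart and whose transcripts a gene total adds together, followed by the windows of Sptan1 and of Sptb, whose levels are compared below with those of Ank2 and Ank3. Capitals mark CANNTG, the E-box bound by myogenic factors among others, which reads the same on both strands.
Ank2, chr3:127499066-127499365, minus strand: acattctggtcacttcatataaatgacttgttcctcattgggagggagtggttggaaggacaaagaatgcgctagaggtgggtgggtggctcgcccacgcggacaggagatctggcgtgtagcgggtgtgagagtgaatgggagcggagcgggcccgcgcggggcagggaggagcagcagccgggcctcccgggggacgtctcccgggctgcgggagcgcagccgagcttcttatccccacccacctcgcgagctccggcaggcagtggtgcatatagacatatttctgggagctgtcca
Ank2, chr3:126998403-126998702, minus strand: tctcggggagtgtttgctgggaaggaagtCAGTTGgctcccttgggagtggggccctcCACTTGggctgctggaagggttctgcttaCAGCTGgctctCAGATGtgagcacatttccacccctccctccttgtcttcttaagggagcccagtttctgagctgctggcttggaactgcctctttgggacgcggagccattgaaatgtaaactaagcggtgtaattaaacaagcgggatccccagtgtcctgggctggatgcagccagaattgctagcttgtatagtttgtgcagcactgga
Sptan1, chr2:29965310-29965609, plus strand: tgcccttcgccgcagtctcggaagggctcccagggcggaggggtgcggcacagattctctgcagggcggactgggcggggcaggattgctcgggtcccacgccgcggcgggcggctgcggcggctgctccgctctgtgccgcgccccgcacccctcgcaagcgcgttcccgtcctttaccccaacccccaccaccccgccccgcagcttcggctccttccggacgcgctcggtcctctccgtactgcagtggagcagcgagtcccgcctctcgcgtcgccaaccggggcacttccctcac
Sptb, chr12:76710498-76710797, minus strand: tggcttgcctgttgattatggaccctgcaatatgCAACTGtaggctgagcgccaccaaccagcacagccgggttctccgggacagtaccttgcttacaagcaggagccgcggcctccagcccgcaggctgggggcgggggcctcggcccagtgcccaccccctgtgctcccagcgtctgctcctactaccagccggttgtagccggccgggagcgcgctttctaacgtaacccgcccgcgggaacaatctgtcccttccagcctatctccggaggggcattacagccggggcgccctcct
The outer Ank2 window held 21 CG pairs and no E-box, while the inner one held 5 CG pairs and 4 E-boxes. The Sptan1 window held 37 CG pairs and no E-box, and the Sptb window 21 CG pairs and 1 E-box. An E-box was present in 72.3% of the 32851 windows of the RefSeq table, and the median window held 7 CG pairs, so an E-box match describes the letters and marks no site.

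The deposited values are on a log2 scale with a shared floor of 5.57, at which genes without reads stand. The floor and the spacing of the low values resemble a variance-stabilizing transformation, which compresses differences between low values. Reads were estimated by inverting that form, and their totals in a library were 12275085 or more and at most 18725976. A change is KO minus WT on the deposited log2 scale, tested with limma over all 12218 genes, with Benjamini-Hochberg adjustment and calls at 0.05. Within their groups, WT 4 and KO 2 lay nearest to the other group on the leading principal component. This component was taken from the 500 genes with the highest variance other than the 6. WT 4 scored -4.68, at the end of a spread of -11.23 to -6.87 in the other WT libraries. KO 2 scored -2.36, against 3.57 to 16.16 in the other KO libraries. In bulk muscle, fewer cells of a type and less RNA per cell cannot be told apart.

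Set by length, the 6 genes spanned a wide range in WT muscle. On the scale of scaled reads per kilobase of the longest coding transcript and per 1000000 reads, Ank1 stood at 82.4 ± 9.20, Sptb at 36.9 ± 8.74, Sptbn1 at 17.7 ± 2.61, Ank3 at 8.76 ± 0.955, Sptan1 at 8.71 ± 0.971 and Ank2 at 1.83 ± 0.514 (SD, n = 6 each). Sptb at 28.0 to 48.2 and Sptbn1 at 13.0 to 20.4 did not overlap, whereas Ank3 at 7.72 to 9.88 and Sptan1 at 6.74 to 9.20 did. With the union of all exons as the length, Sptan1 at 5.22 stood above Ank3 at 2.51, and the order of the others was kept. A level per length depends on the transcripts in use: the coding transcripts of Ank1 run from 328 to 8218 bases in GENCODE release M21, and the table does not separate them. The gene that was deleted was thus the least abundant of the 6 by length in WT. Averaged over all 12 libraries, KO included, its log2 values stood near the middle of all tested genes, at percentile 51.5. The others stood at percentiles 84.4 to 99.0 by the same average.

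The Ank2 values of the 6 KO libraries all lay under those of the 6 WT libraries. Its deposited log2 values in WT 1 to 6 were 8.55, 8.81, 9.18, 8.40, 9.22 and 9.15, and in KO 1 to 6 they were 8.03, 7.63, 7.74, 7.58, 7.54 and 7.90. The groups did not overlap, with the closest libraries being WT 4 and KO 1. The change was -1.15 (SE 0.14, 95% interval -1.45 to -0.85, limma adjusted p = 0.000885). On the scale of scaled reads, KO libraries held 33.1% ± 7.12 of the WT mean (SD, n = 6; exact permutation p = 0.00216, the lowest possible with 924 assignments), from 26.3% in KO 5 to 44.3% in KO 1. WT libraries ran from 63.4% in WT 4 to 128% in WT 5. Of the 12218 tested genes, 1.20% had all KO libraries below all WT libraries and 2.47% had groups that did not overlap in either direction. Ank2 spans 126921612 to 127499350 of chromosome 3 (mm10, minus strand) and has 27 annotated transcripts, and its values rest on 98 to 475 estimated reads per library. They sum over the whole gene, and the labels do not name the floxed exons, so reads from exons that the deletion leaves in place count as Ank2.

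The KO libraries that lay farthest from WT on this component did not hold the least Ank2. KO 2, nearest to WT, held 28.9% of the WT mean of Ank2, less than KO 1 at 44.3% and KO 6 at 38.9%, which lay farthest from WT with scores of 16.16 and 14.96. Within the 6 KO libraries, Pearson's r between the Ank2 value and the score was 0.76 (exact permutation p = 0.0833) and Spearman's rho was 0.77 (exact permutation p = 0.103), and neither passed the threshold. Without KO 1 and KO 6, the libraries farthest from the median of Ank2, r was 0.23. They held the highest Ank2 values of KO, so the narrower range left cannot show whether the relation holds. With 200 and 1000 variable genes in place of 500, r over the 6 KO libraries was 0.66 (exact permutation p = 0.158) and 0.82 (exact permutation p = 0.0514). Without KO 1 and KO 6 these were -0.04 and 0.41.

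None of the other 5 genes passed the test, where 6.20% of all tested genes did, but 3 of them, all spectrins, had an unadjusted p under the threshold. Ank1, Ank3, Sptan1, Sptb and Sptbn1 gave 0 calls with limma and 0 with limma-voom on estimated reads, and 3 unadjusted p-values under 0.05 with either, all for lower values in KO. Over all tested genes, 26.0% had an unadjusted p under 0.05 and 14.1% were lower in KO at that threshold. Among the 701 tested genes whose longest transcript has 8000 bases or more, as for all 6 genes here, that share was 30.8%, the median change was -0.13 and 7.13% were called lower, against a median of -0.01 over all tested genes. The difference between long and other genes was not tested, and values adjusted for each library's trend with transcript length are given below.

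**Figure D1:**
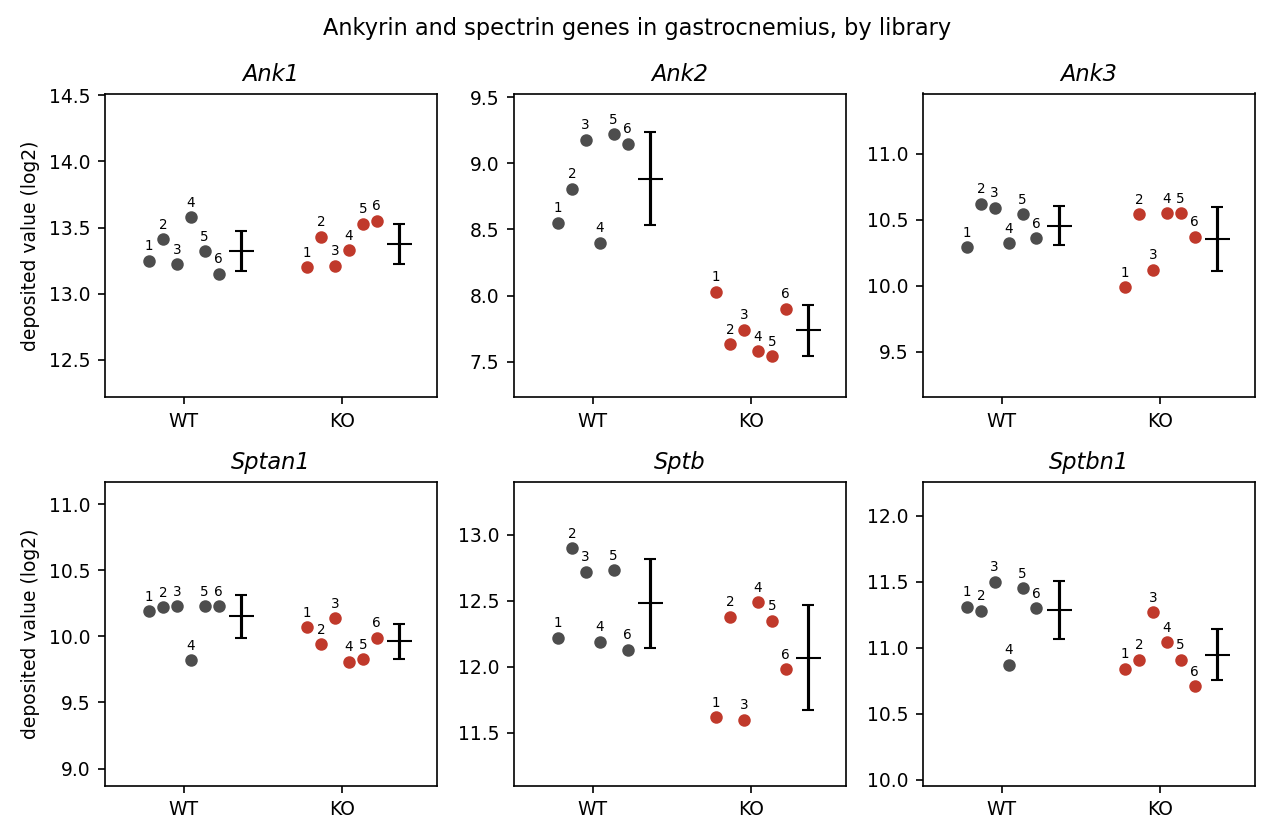
Deposited log2 values of the 6 genes by library, with WT in grey and KO in red, the replicate number above each point, and a bar for the mean ± SD of 6 libraries; every panel spans the same log2 range. The Ank2 groups do not overlap, the groups of the other 5 genes do, and WT 4 lies low for Sptan1 and Sptbn1.

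Ank1, the most abundant of the 6, was alike in range in both groups. Its log2 values were 13.25, 13.41, 13.22, 13.58, 13.32 and 13.15 in WT 1 to 6 and 13.20, 13.43, 13.21, 13.33, 13.53 and 13.55 in KO 1 to 6. The KO values lay within the WT range, and the change was 0.05 (SE 0.10, 95% interval -0.15 to 0.25, limma adjusted p = 0.763). The interval covers a small change in either direction, up to 0.25. Ank1 spans 22974844 to 23150497 of chromosome 8, plus strand, with 7842 to 13311 estimated reads per library. Red-cell RNA was present at a low level: the globin genes Hba-a1, Hba-a2 and Hbb-bs had 99 to 405, 100 to 430 and 133 to 564 estimated reads, and Alas2, the heme synthesis enzyme gene of red cells, had 9 to 70. Among red-cell membrane genes, Epb42 had 0 to 4 estimated reads and Slc4a1, the anion exchanger gene, had 0 to 5. The antisense gene Gm15816 shares 862 exon bases with Ank1, and libraries without strand cannot separate the reads. It held 393 to 756 estimated reads and gave 0.06 (SE 0.11, limma adjusted p = 0.764).

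Ank3 did not pass the test either, and 2 KO libraries stood below all others. Its log2 values were 10.29, 10.62, 10.59, 10.32, 10.54 and 10.36 in WT 1 to 6 and 9.99, 10.54, 10.12, 10.55, 10.55 and 10.37 in KO 1 to 6. KO 1 and KO 3 were below every WT library, while the other 4 KO libraries lay within the WT range. The change was -0.10 (SE 0.11, 95% interval -0.32 to 0.12, limma adjusted p = 0.574), and its direction turned to 0.02 (adjusted p = 0.924) after the length adjustment. Ank3 spans 69398773 to 70027438 of chromosome 10, plus strand, with 47 annotated transcripts. The balance of Ank2 with the other ankyrins of the same library had lower means in KO. The log2 difference Ank2 minus Ank3 was -1.57 ± 0.29 in WT and -2.62 ± 0.42 in KO, and Ank2 minus Ank1 averaged -4.44 ± 0.47 over WT and -5.64 ± 0.28 over KO (SD, n = 6 each). For Ank2 minus Ank3 the ranges of -1.92 to -1.21 in WT and -3.01 to -1.96 in KO did not overlap, and for Ank2 minus Ank1 they met at -5.18.

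Sptbn1, the beta-II chain, had the smallest p of the spectrins. Its log2 values were 11.31, 11.28, 11.50, 10.87, 11.45 and 11.30 in WT 1 to 6 and 10.84, 10.91, 11.27, 11.04, 10.91 and 10.71 in KO 1 to 6. All 6 KO libraries lay below the WT median of 11.31, but WT 4 lay among them. The change was -0.34 (SE 0.11, 95% interval -0.57 to -0.11, limma adjusted p = 0.0727), with KO libraries at 78.1% ± 11.2 of the WT mean (SD, n = 6). Without WT 4, the lowest WT library for this gene, it was -0.42 and passed the test (limma adjusted p = 0.0206). It did not pass with any other library left out (limma adjusted p 0.0619 to 0.17). After the length adjustment the change was -0.23 (adjusted p = 0.149). Sptbn1 spans 30099395 to 30268175 of chromosome 11, minus strand.

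Endothelial markers followed the order of Sptbn1 in some of these libraries and not in others. The summed scaled reads of 10 endothelial markers spanned 5037 to 6609 in WT and 4268 to 6503 in KO. They were highest in WT 3 and KO 3 within their groups, as Sptbn1 was, and lowest in KO 6, which also held the lowest Sptbn1 value. In contrast, KO 4 had an Sptbn1 value of 11.04 and a marker sum of 4647, and KO 1 had 10.84 and 5249. The lowest WT sum was in WT 2, while the lowest WT value of Sptbn1 was in WT 4. All 10 passed the filter, and Flt1, a VEGF receptor gene, was the only one called (-0.50, SE 0.13, limma adjusted p = 0.0347), where 3.08% of all tested genes were called lower. The list median was -0.15, and the part of these cells in the Sptbn1 values was not tested.

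Sptan1, the alpha-II chain, varied little among WT libraries other than WT 4. Its log2 values were 10.19, 10.22, 10.23, 9.82, 10.23 and 10.23 in WT 1 to 6 and 10.07, 9.94, 10.14, 9.81, 9.83 and 9.99 in KO 1 to 6. Every KO library lay below the 5 WT libraries other than WT 4, which matched the lowest KO libraries. The change was -0.19 (SE 0.09, 95% interval -0.37 to -0.01, limma adjusted p = 0.18). It was -0.25 and called without WT 4 (limma adjusted p = 0.0491), and -0.09 after the length adjustment (adjusted p = 0.555). It was not called with any other library left out (limma adjusted p 0.17 to 0.307). Sptan1 spans 29965560 to 30031451 of chromosome 2, plus strand, with 769 to 1166 estimated reads per library. The log2 difference Sptan1 minus Sptbn1 within a library averaged -1.13 ± 0.09 over WT and -0.98 ± 0.20 over KO (SD, n = 6 each), with ranges that overlapped.

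Sptb, the beta-I chain, had the widest spread of the spectrins. Its log2 values were 12.22, 12.90, 12.72, 12.19, 12.73 and 12.13 in WT 1 to 6 and 11.62, 12.38, 11.60, 12.49, 12.35 and 11.98 in KO 1 to 6. KO 1, KO 3 and KO 6 lay below all WT libraries, and the other 3 KO libraries lay within the WT range. The change was -0.41 (SE 0.18, 95% interval -0.80 to -0.02, limma adjusted p = 0.172), and KO libraries held 75.2% ± 20.1 of the WT mean (SD, n = 6). After the length adjustment it was -0.30 (adjusted p = 0.216). Sptb spans 76580488 to 76710547 of chromosome 12, minus strand. The balance of the beta chains, Sptb minus Sptbn1, averaged 1.20 ± 0.29 over WT and 1.12 ± 0.47 over KO (SD, n = 6 each) on the log2 scale, with overlapping ranges of 0.83 to 1.62 and 0.34 to 1.47.

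**Figure D2:**
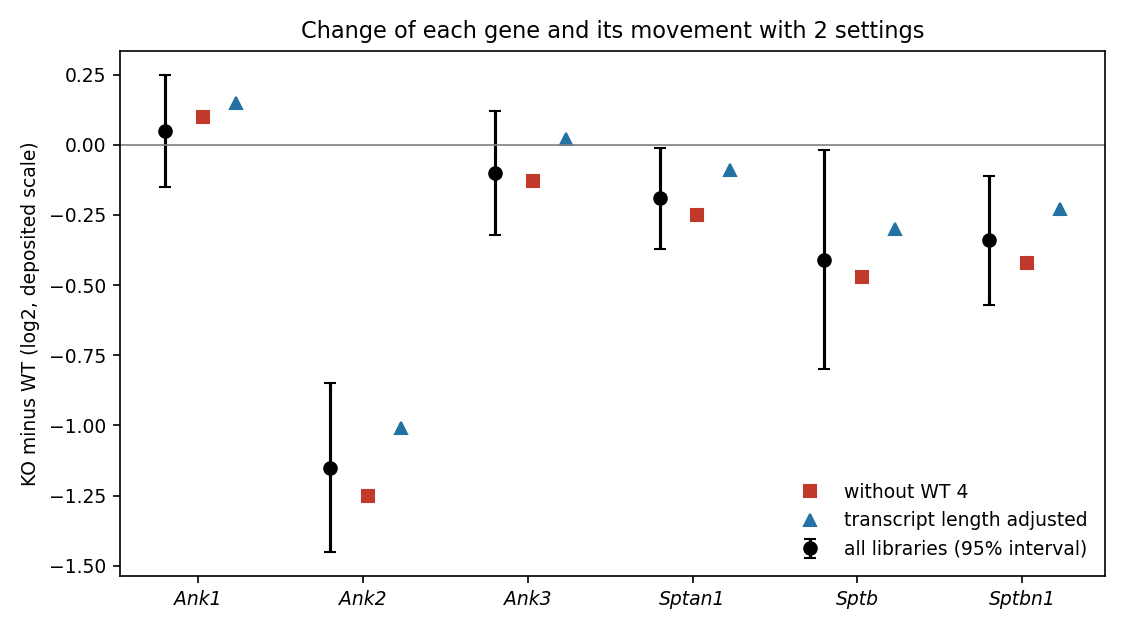
Change of each gene, KO minus WT on the deposited log2 scale, from all 12 libraries with its 95% interval (black), without WT 4 (red squares) and after adjustment for transcript length (blue triangles). Ank2 stays between -1.25 and -1.01, the spectrin estimates move down without WT 4 and toward 0 with the length adjustment, and Ank3 crosses 0. Of the 12 omissions of a library, only that of WT 4 let Sptan1 and Sptbn1 pass the test.

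Across libraries, Ank3 and Sptb were correlated in both genotypes. Relations were measured on deviations from the group mean over 12 libraries, for 15 pairs of the 6 genes, with permutation within groups and p-values adjusted over the 15 pairs. For Ank3 and Sptb, Pearson's r was 0.95 (permutation p = 0.00031, adjusted p = 0.00465) and Spearman's rho was 0.91 (permutation p = 0.00061, adjusted p = 0.0051), with r = 0.96 within WT and 0.96 within KO. Without the 2 libraries farthest from the median of Ank3, r was 0.96, and with length-adjusted values it was 0.88 (permutation adjusted p = 0.006). Both genes lay above their group means in WT 2, WT 3, WT 5, KO 2, KO 4 and KO 5 and below them in WT 1, WT 4, WT 6, KO 1 and KO 3. KO 6 lay near both means, with deviations of 0.01 for Ank3 and -0.09 for Sptb. Long genes as a class split the libraries in a like way. The median of the 701 long genes, each minus its WT mean, was 0.10, 0.04 and 0.06 in WT 2, WT 3 and WT 5. It was -0.06, -0.11 and -0.03 in WT 1, WT 4 and WT 6. In KO 2, KO 4 and KO 5 it was -0.07, -0.02 and -0.07, and in KO 1, KO 3 and KO 6 it was -0.23, -0.15 and -0.17. The part of this class in the correlation was not tested. Of 8114 genes with a mean of at least 100 estimated reads, gene models and pseudogenes left out, 99 had deviations at least as like those of Ank3, by Pearson's r, as Sptb had. For Sptb, 29 were at least as like it as Ank3 was. The genes most like Ank3 in this measure over 12 libraries were Pard3 (r = 0.993), Nupl1 (0.991) and Oxsr1 (0.990), and those most like Sptb were Ankrd11 (0.982), Tsc1 (0.977) and Nupl1 (0.976).

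Ank2 and Sptan1 were also correlated over the libraries. Their r was 0.71 (permutation p = 0.00477, adjusted p = 0.0358) and rho was 0.77 (permutation p = 0.00068, adjusted p = 0.0051), with r = 0.74 within WT and 0.68 within KO. WT 4 was the lowest WT library for both genes, while WT 1 and WT 2 lay below the WT mean for Ank2 and above it for Sptan1. Without the 2 libraries farthest from the median of Ank2, r was 0.51, and with length-adjusted values it was 0.71 but no longer passed (permutation adjusted p = 0.0643). Of the same 8114 genes, 50 were at least as like Ank2 as Sptan1 was, and 73 at least as like Sptan1 as Ank2 was. None of the 13 pairs left passed by either coefficient. The nearest were Ank1 against Sptan1 at -0.72 and Ank1 against Sptbn1 at -0.70 (permutation adjusted p = 0.0756 for each), and Ank1 against Sptbn1 passed with length-adjusted values (-0.81, permutation adjusted p = 0.006). Sptan1 against Sptb, with rho at -0.52 (permutation adjusted p = 0.235), passed by Spearman's coefficient with length-adjusted values (rho -0.78, permutation adjusted p = 0.0445) and not by Pearson's (-0.66, permutation adjusted p = 0.115).

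**Figure D3:**
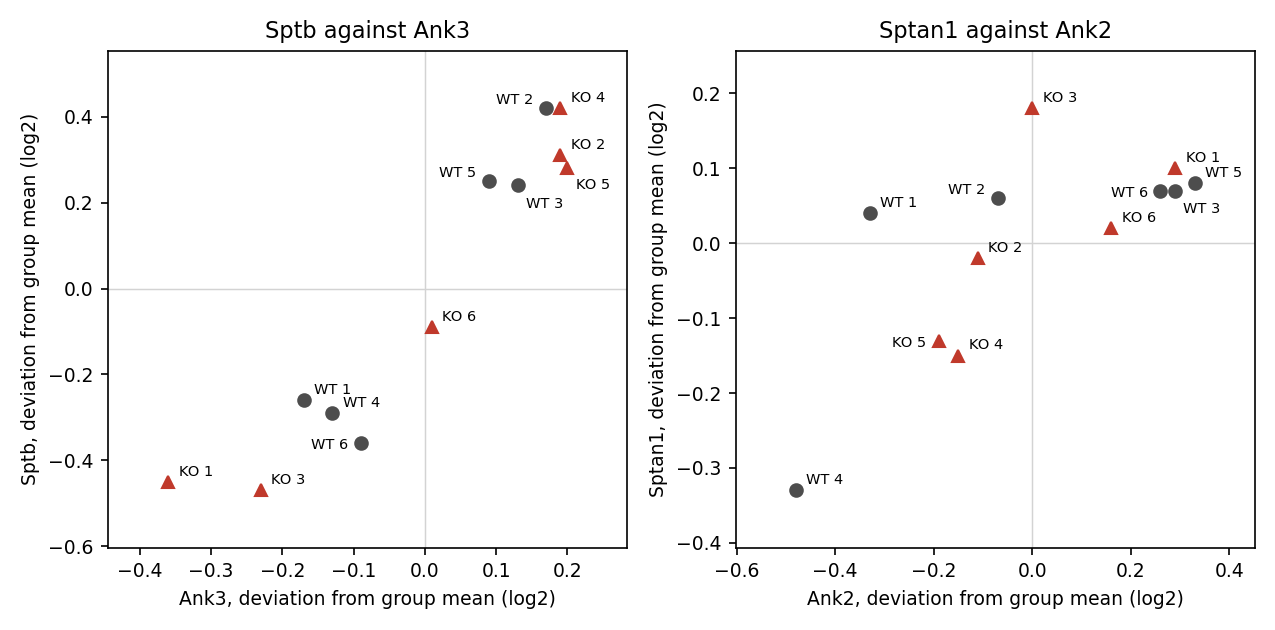
Deviation of each library from its group mean on the log2 scale, for Sptb against Ank3 (left) and Sptan1 against Ank2 (right), with WT as grey circles and KO as red triangles. WT 2, WT 3, WT 5, KO 2, KO 4 and KO 5 lie above 0 for both Sptb and Ank3, and WT 4 lies lowest for Ank2 and Sptan1.

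The genes whose deviations were most like those of the remaining members, over the same 12 libraries, were called between genotypes only in the case of Plin3. For Ank2 they were Plin3 (r = 0.889), a lipid-droplet protein gene, Tm6sf1 (0.887) and the kinase gene Map4k4 (0.873). Plin3 was higher in KO (0.58, limma adjusted p = 0.0375) while Ank2 was lower, so their likeness lay within the groups only. For Sptbn1 they were Cd36 (r = 0.928), a fatty acid transporter gene, the transcription factor gene Tcf4 (0.922) and Msn (0.915), which encodes moesin, a linker of membrane and actin. For Sptan1 they were the RNA-editing enzyme gene Adarb1 (0.918), Taf1 (0.904) and Ifi203 (0.901), and for Ank1 they were Fam98b (0.957), Derl1 (0.955) and Mphosph10 (0.942). These were the highest of 8114 values each, and are given as a description.

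Of the other genes of the spectrin net, none passed the test. A list of 19 genes held other spectrins, the Epb41 and adducin families, actin-capping tropomodulins and cytoplasmic actins; 18 were in the table and 13 passed the filter. Limma called 0 of the 13, with 6 unadjusted p-values under 0.05, and limma-voom called 0 with 7. Over all tested genes, limma called 6.20%, and 26.0% had an unadjusted p under 0.05. The list median was 0.10, against -0.01 over all tested genes. Epb41, whose product strengthens the bond of spectrin to actin, gave -0.30 (SE 0.09, limma adjusted p = 0.0579), with 3 of 6 KO libraries below all WT libraries. Tmod1, a tropomodulin that caps actin at its pointed end, gave -0.26 (SE 0.11, adjusted p = 0.144). The cytoplasmic actin genes Actb (0.25, SE 0.09, limma adjusted p = 0.0878) and Actg1 (0.23, SE 0.10, limma adjusted p = 0.176) had higher estimates. These 4 fall outside the rule for named genes and were chosen after their values were seen. The spectrin gene Sptbn4, with 0 to 3 estimated reads, was too low to test.

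Of 25 genes listed as ankyrin binding partners, 22 passed the filter, and 2 of these fell and 1 rose in KO. Over all tested genes, 3.08% were called lower and 3.12% higher. Whether each listed product itself binds an ankyrin was not checked, and these data do not show binding. Dmd, which encodes dystrophin, fell by 1.18 (SE 0.19, limma adjusted p = 0.00673). Its log2 values were 10.48, 10.69, 10.85, 10.50, 10.73 and 10.42 in WT 1 to 6 and 8.85, 10.19, 8.96, 9.62, 9.68 and 9.29 in KO 1 to 6. The groups did not overlap, and KO 2, the KO library nearest to WT on the leading component, held the highest KO value. Its Ank2 stood at 28.9% of the WT mean, within the KO range of 26.3% to 44.3%. A relation of Dmd to Ank2 among KO libraries was not tested. Itpr1, an inositol trisphosphate receptor gene, fell by 0.99 (SE 0.17, limma adjusted p = 0.00856), with values of 9.48 to 10.45 in WT and 8.43 to 9.34 in KO, WT 4 the highest and KO 2 the highest of KO. Slc8a3, a sodium-calcium exchanger gene, rose by 0.39 (SE 0.10, limma adjusted p = 0.035), with 5 of 6 KO libraries above all WT libraries and KO 2, at 10.05, within the WT range. It did not pass without WT 1, WT 2, WT 3, WT 5, WT 6, KO 1, KO 3 or KO 6 (limma adjusted p up to 0.0772). Without KO 2, 6 genes of the list were called. The list median was -0.12, with 17 of 22 estimates negative, where 52.4% of all tested genes were negative.

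Several genes of this list gave estimates close to 0. Dctn4, a dynactin subunit known to bind ankyrin-B, gave -0.03 (SE 0.07, limma adjusted p = 0.811), and Rabgap1l, another known ankyrin-B partner, gave -0.09 (SE 0.09, limma adjusted p = 0.555). Slc8a1, the main cardiac sodium-calcium exchanger gene, had a larger estimate of -0.98 (SE 0.27, limma adjusted p = 0.0577) without passing, and 5 of 6 KO libraries lay below all WT libraries. Limma-voom, which works on log2 estimated reads and so on another scale, called it (-1.37, limma-voom adjusted p = 0.0499). These 3 were chosen after their values were seen.

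**Figure D4:**
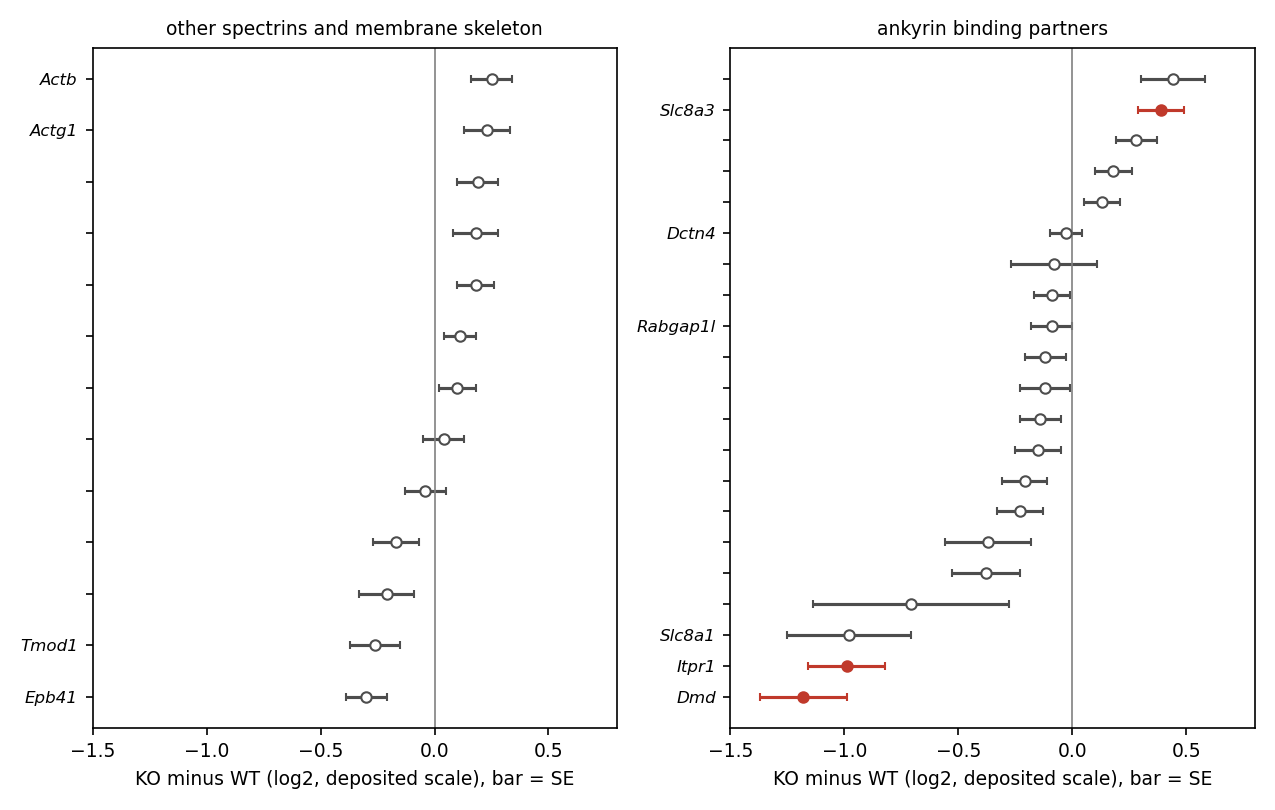
Change of each tested gene of the list of other spectrins and membrane skeleton (13 genes, left) and of ankyrin binding partners (21 of the 22 tested genes, right), KO minus WT on the deposited log2 scale with its SE; filled red points passed the test at 0.05 after adjustment over all genes. Genes described in the text are labelled, and Dmd, Itpr1 and Slc8a3 are the only filled points.

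The defining markers of other tissue components were checked for the same libraries. Fast-fibre markers summed to between 3574538 and 4829377 scaled reads in WT and between 3611223 and 4321389 in KO. Slow-fibre markers, of which 0 of 8 were called, spanned 6408 to 65996 in WT and 1206 to 17181 in KO, with a list median of -1.86. Of 10 Schwann cell markers, 0 were called, and their sum spanned 1328 to 4137 in WT and 714 to 7529 in KO. It was highest in KO 1, the KO library with the most Ank2. Without KO 1, KO libraries held 30.9% of the WT mean of Ank2. The sum was lowest in KO 6, which held 38.9% of that mean, the next most among KO libraries. Among WT libraries it was highest in WT 2, with Ank2 at 91.3% of the WT mean, and lowest in WT 6, with Ank2 at 121%. Of 10 red-cell markers, 5 passed the filter and 0 were called, with sums of 805 to 1323 in WT and 359 to 1408 in KO and Rhag at the floor in every library. The smooth muscle, adipocyte and satellite cell lists each gave 1 call, of 8, 5 and 6 tested genes. The list medians were -0.32, -0.27 and 0.08. The called genes were Myh11 (-0.54, limma adjusted p = 0.0419), Adipoq (-0.34, limma adjusted p = 0.043) and Sdc4 (0.27, limma adjusted p = 0.033). The fibroblast and macrophage lists gave 0 of 8 each and the neuron list, with Nefl and Chat at the floor, 0 of 1 tested. Over all tested genes, 6.20% were called. The part of these cells in the ankyrin and spectrin values was not tested.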

How the data were processed

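Poly-A RNA was made into 12 NEBNext Ultra libraries, per the labels' protocols, which name no strand-marking step. The authors deposited 1 log2 value per gene and library. Per the submitters' processing notes, the tools were fastp, STAR and featureCounts and the build was mm10; the transformation and the annotation are not stated there. The closed-form variance-stabilizing transformation was inverted with the shared floor, and the smallest step of each library was taken as 1 read. Low values (under 30 reads) then lay within 0.1 of a whole number in 83.6% to 90.8% of cases per library. This share was 100.0% for genes above the floor in 1 library, from which the step was taken. Over genes above the floor in 4 or more libraries, it was 96.8% with 1 annotated transcript and 75.8% with 8 or more. The authors' values may therefore carry a factor per gene and library, and estimated reads are approximate, more so for the many-transcript ankyrin genes. They were used for the filter (at least 10 in 6 libraries), depth, percentages and some alternatives.

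limma 3.58.1 (R 4.3.3) was fitted to the deposited values with 1 term, the group, and with trend and robust moderation. An alternative scaled estimated reads by the trimmed mean of M values (TMM). On simulated data of 12218 genes, the fit recovered 82% of 100 genes changed by 0.5 and 99% of 100 changed by 1, with 12 false calls. The simulated noise was drawn independently for each gene and library. It held no differences shared by many genes of a library, as these data do, so these rates may not hold here. Positions and lengths came from GENCODE M21. Length adjustment subtracted each library's lowess trend on log2 length of the longest transcript, known for 98.1% of tested genes. A few genes of the lists are counted in them but not reported here by name. The members and lists were chosen with earlier results of these data known. Named genes were the members, called genes of the 2 pathway lists, and the 3 genes most correlated with each member. Alternatives covered tests, scalings, filters, pseudocounts, length, a replicate block and the omission of each library. The precision of estimated reads is that of counting only, since PCR copies are not marked.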

Additional observations from a re-analysis of the deposited data

Results flagged for a closer look

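In 12 checks, the 6 genes in each group of 6 libraries, the lowest or highest library stood apart by Dixon's criterion in 2 cases, both for WT 4 at the 95% level (chance flags about 1 in 20 groups). The Sptan1 value of WT 4 was 9.82, with a gap of 0.89 of the WT range to the next library. Its Sptbn1 value was 10.87, with a gap of 0.65 of that range.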

How the results depend on the processing

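The fall of Ank2 passed the test in all 24 alternatives (limma adjusted p 0.000221 to 0.00424). On the deposited scale, adjusted or not, it ran from -1.25 to -1.01. With log2 estimated or scaled reads, another scale, it ran from -1.56 to -1.53. The KO level was 30.9% to 35.1% of the WT mean over the omission of each library, and 33.1% with TMM scaling. Ank1 and Sptb passed in none (adjusted p 0.321 to 0.941 and 0.0997 to 0.345), nor did Ank3 (0.418 to 0.925). Ank3 turned to 0.02 after length adjustment, with and without the replicate block. Without 1 library, Sptan1 ran from -0.25 to -0.16 and Sptbn1 from -0.42 to -0.29, and both passed only without WT 4. The number of called genes over the table, 757, ran from 194 without KO 6 to 1514 without KO 2, and was also moved by over 1.5 times by omitting WT 1 (367), WT 2 (207), WT 3 (205), WT 5 (317), WT 6 (366), KO 1 (272) or KO 3 (225). Called genes of the spectrin net ran from 0 to 1 without 1 library. There was 1 with the replicate block and without KO 2 or KO 5 (Epb41), and 1 with quantile normalization and without WT 4 (Actb). Called genes of the ankyrin partner list ran from 2 to 6, the latter without KO 2. Itpr1 lost its call with length adjustment and the block together (adjusted p = 0.0654). Among correlations, length adjustment turned Ank1 with Sptb to -0.01, Ank3 with Sptbn1 to -0.46 and Sptb with Sptbn1 to -0.31; the Ank2 with Sptan1 value of 0.71 no longer passed, and Ank1 with Sptbn1 passed at -0.81. It also took Sptan1 with Sptb past the threshold by Spearman's coefficient (rho -0.78, adjusted p = 0.0445) and moved Ank3 with Sptan1 from -0.26 to -0.72 (adjusted p = 0.115), while Ank3 with Sptb still passed at 0.88 (adjusted p = 0.006). The cause of these changes was not tested. Same-numbered libraries correlated from -0.36 to 0.291 in their deviations, over 0.1 in 2 of 6 numbers, and 1 of 6 WT libraries correlated best with its own number. Such correlations cannot show whether same-numbered mice shared a litter or cage. With the replicate block the Ank2 change was -1.15 (limma adjusted p = 0.0019) and no call of a member changed.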
